A study of Homo sapiens with 4 samples.

Results

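Surface markers of germinal center, memory and activated B cells were followed at the RNA level in NUDUL1, a human lymphoma line of the germinal center B cell-like type. The set held 10 genes, MME, CD38, CD27, CD24, CD44, CD69, CD70, FAS, CLEC17A and MS4A1, taken by symbol from a table of 25066 genes, and all 10 were found. The cells were a single Cas9-engineered clone carrying doxycycline-inducible Cas9 and the transduced thromboxane receptor Tbxa2r, and expressed either a control guide RNA (control) or a guide against GNA13 (GNA13-deficient). Both genotypes had been treated with U46619, a stable thromboxane analog, at 10 nM for 24 h, so that no untreated cells entered the comparison. There were 2 libraries and 1 guide per genotype, and the labels describe them as duplicates without saying whether these were separate cultures, so the p values below measure the spread between these libraries, which may be technical. The question was whether RNA of the surface markers by which B cell stages are told apart differed with Gα13 loss under Gα13 stimulation.

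Germinal center B cells are commonly recognized by MME (the ectopeptidase CD10), CD38 (an NAD-consuming ectoenzyme) and FAS (a death receptor), together with MS4A1 (CD20), which is carried by most mature B cells. Memory B cells are known for CD27, a TNF-family receptor whose ligand is CD70, and activated lymphocytes for CD69, a C-type lectin that binds the egress receptor S1PR1. CD44 is an adhesion receptor for hyaluronan, CD24 a small lipid-anchored glycoprotein and CLEC17A (prolectin) a C-type lectin described on germinal center B cells.

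The total of mapped reads lay between 29209544 and 31537955 per library. GNA13 itself had log2 values of 12.46 and 12.45 in control against 13.10 and 13.11 in those labelled GNA13-deficient, so its mRNA rose rather than fell under its guide (adjusted p = 0.00214 from limma), and every direction given here rests on the labels. The B cell receptor genes CD79A and CD79B were present at 7906 reads or more in every library, and BCL6, the germinal center master regulator, fell by 2.49 on the log2 scale (adjusted p = 0.00085 from limma). Of 8 T cell markers, CD3D, CD3E, CD2 and CD7 were listed at 0 in all libraries, but the summed reads of the list were 144 to 199 in control against 6 to 21 in those labelled GNA13-deficient, with CD4 supplying most of them. Summed reads of 8 myeloid markers were 406 to 443 against 27 to 32, mainly from CD33, ITGAM and LYZ, with S100A8 listed at 0 and MPO, FCGR1A and CD14 at 2 reads or fewer. Summed reads of 4 epithelial markers were 38 to 46 in control against 92 to 99 in those labelled GNA13-deficient, nearly all from EPCAM, with KRT8 and KRT18 listed at 0. The part of these shifts in the results for the surface markers was not tested.

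The upstream sequences of the only pair of TNF receptors in the set, CD27 and FAS, are shown because their RNA moved in opposite directions. They are the 250 bases before the first listed start of each gene, from RefSeq on GRCh38.p14, at chr12:6443642-6443891 on the plus strand for CD27 and at chr10:88990548-88990797 on the plus strand for FAS, and run 5′ to 3′ with motif matches in capitals.
CD27: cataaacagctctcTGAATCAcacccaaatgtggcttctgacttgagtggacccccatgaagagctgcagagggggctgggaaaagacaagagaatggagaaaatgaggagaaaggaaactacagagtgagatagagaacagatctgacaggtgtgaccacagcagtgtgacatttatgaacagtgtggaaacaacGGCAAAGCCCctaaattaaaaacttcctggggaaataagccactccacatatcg
FAS: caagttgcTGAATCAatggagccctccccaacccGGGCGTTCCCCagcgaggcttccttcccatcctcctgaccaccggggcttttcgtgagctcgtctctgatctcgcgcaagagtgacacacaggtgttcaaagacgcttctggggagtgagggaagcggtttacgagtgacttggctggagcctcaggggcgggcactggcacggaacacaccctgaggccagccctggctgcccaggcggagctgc
The letters searched, on both strands, were TGANTCA for AP-1, 3 G, any 5 bases and then 2 C for NF-kB, GTAAACA for FOXO factors, ATGCAAAT for the octamer, TATAAA for the TATA box, TGACGTCA for CRE and CACGTG for the E-box. In CD27 the AP-1 letters began 236 bases and the NF-kB letters 54 bases before the start. In FAS the AP-1 letters began 242 bases before the start, and 2 overlapping NF-kB matches began 216 and 215 bases before it. The AP-1 letters occur in 6.57% of 35116 promoter windows of this length and the NF-kB letters in 54.4%, so the latter are common, and none of the other 5 motifs was found in either window. The CD27 window was poorer in G and C (46% against 62.8% for FAS and a median of 58% over all windows). RefSeq windows were matched for 6 of the 10 genes, MME, CD38, CD24, FAS, CD44 and CD27. They made 13 windows, since MME, CD24 and FAS have several listed starts. Among these genes, the AP-1 letters were found only in CD27 and in the first window of FAS. The NF-kB letters were found in at least 1 window of every gene but CD38, though not in every window of FAS or CD24. The shares above are per window, and a gene with several windows has more chances to match. A match describes letters and not a bound site.

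All 10 genes passed the filter on low values, being above 0 in no fewer than 2 libraries. By limma with a mean-variance trend, fitted on the deposited log2 values of all 16945 genes that passed and adjusted by the Benjamini-Hochberg method, 5 of the 10 had an adjusted p under 0.05, of which 3 were lower (CD27, CD24, MS4A1) and 2 higher (CLEC17A, FAS) in the libraries labelled GNA13-deficient. The share called among all genes was 29.7%, made up of 16.6% lower and 13.1% higher. When each library was centred on its median, the median difference of all genes became 0.18, and 4311 of 6235 called genes were higher (69.1%), against 2218 of 5037 without centring. Of the 10 surface markers, 3 were then higher, CD38 being added, and 3 lower. The genotypes did not overlap in 8 of the 10 genes, against 65.3% of all genes, and the median log2 difference was -0.00075 over the 10 and -0.024 over all genes tested. A difference of at least 1 on the log2 scale that also passed the test was found for CD27 and CLEC17A, against 10.0% of all genes. In bulk RNA, fewer cells carrying a transcript and less transcript per cell cannot be told apart.

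**Figure D1:**
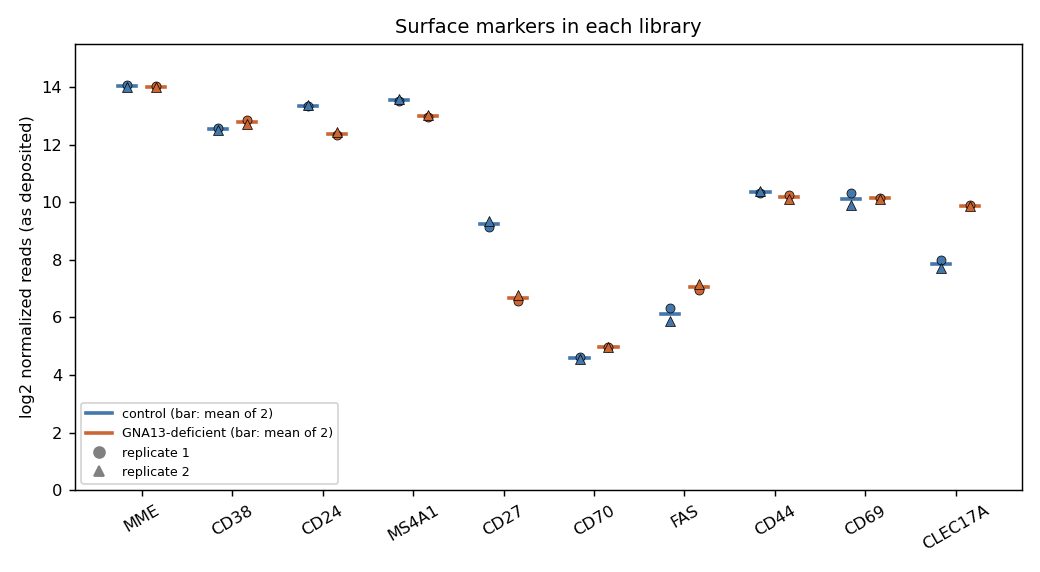
Deposited log2 normalized reads (vertical axis) of the 10 surface markers (horizontal axis) in each library, with circles and triangles for replicates 1 and 2 and a bar at the mean of the 2 libraries of a genotype. CD27 dropped from 9.25 to 6.68 and CLEC17A went from 7.86 to 9.88, while MME, the marker with the highest log2 values, lay between 13.99 and 14.08 in all 4 libraries.

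The germinal center markers MME and CD38 did not pass the test. MME (Entrez 4311; GRCh37 chromosome 3, 154741913 to 154901493) had log2 values of 14.08 and 14.00 in control against 14.04 and 13.99 in those labelled GNA13-deficient, and the genotypes overlapped. Its log2 difference was -0.02 (95% interval -0.19 to 0.15, adjusted p = 0.844 from limma), an interval that reaches from 0.875-fold to 1.11-fold. The sign turned under median centring of the libraries, where the difference was 0.19. CD38 (Entrez 952; chromosome 4, 15779898 to 15854855) had values of 12.59 and 12.52 in control against 12.86 and 12.74 in those labelled GNA13-deficient. Both of the latter lay above both controls, by a gap of 0.15 against a largest replicate difference of 0.12. The log2 difference of CD38 was 0.24 (95% interval 0.07 to 0.41), and its adjusted p of 0.0521 from limma fell just short of the threshold. It passed in 8 of 16 alternative settings. These 16 include the fits with a library left out, which cannot decide whether a gene passes because 1 residual degree of freedom remains. The CD38 difference moved with the scaling. It was 0.45 under median centring (adjusted p = 0.0073 from limma) and 0.13 under quantile normalization (adjusted p = 0.221). When scaled to the total of mapped reads it was 0.19 (adjusted p = 0.138).

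Around CD38, genes of NAD metabolism and its ligand were read from a list of 13 genes, of which 10 were tested, with 2 called higher and 5 lower. PECAM1, the endothelial adhesion molecule described as a CD38 ligand, had 112 and 115 reads in control against 11 and 16 in those labelled GNA13-deficient, and fell by 3.03 (adjusted p = 0.00393 from limma; 0.052 without the filter on low values). NAMPT, the rate-limiting enzyme of NAD salvage, rose by 0.43, PARP1, an NAD-consuming DNA repair enzyme, by 0.30, and NADSYN1, an NAD synthetase, fell by 0.55. None of these 3 passed without the filter or without the variance trend, and PARP1 also did not pass under quantile normalization (adjusted p = 0.0826) or when scaled to the total of mapped reads (adjusted p = 0.0678). Named after their values had been seen, TRPM2 fell by 3.01 and NAPRT1 by 1.96 (adjusted p = 0.00085 and 0.00634 from limma). Of 9 peptidase genes listed beside MME, 5 were tested. ECE1, the endothelin-converting enzyme, rose by 0.49. DPP4 fell by 3.20 (adjusted p = 0.0304 from limma), but was scarce and was named after its values had been seen. It had 22 and 17 reads in control against 4 and 1 in those labelled GNA13-deficient. The other 3 tested did not pass.

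MS4A1 and CD24 were abundant and fell. MS4A1 (Entrez 931; chromosome 11, 60223319 to 60238225) had log2 values of 13.53 and 13.61 in control against 12.96 and 13.04 in those labelled GNA13-deficient, or 11633 and 12673 recovered reads against 7743 and 7846. The genotypes stood apart by 0.49, while replicates differed by at most 0.09. MS4A1 fell by 0.57 on the log2 scale (standard error 0.06, adjusted p = 0.00477 from limma), to 67.4% of the control level (95% interval 0.600-fold to 0.757-fold). Under median centring it fell by 0.36 (adjusted p = 0.0271). Among 16 other MS4A family genes listed, 14 were in the table and 7 tested, of which 2 were lower and none higher. MS4A6A, the most abundant of them, fell by 0.43. It did not pass without the filter (adjusted p = 0.127) or the variance trend (adjusted p = 0.0916), and under median centring none of these other family genes passed.

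CD24 (Entrez 100133941) had log2 values of 13.34 and 13.39 in control against 12.34 and 12.44 in those labelled GNA13-deficient. The gap of 0.90 between genotypes was larger than the largest difference between replicates, 0.11. CD24 fell by 0.97 on the log2 scale (standard error 0.06, adjusted p = 0.00158 from limma), which left 51.0% of the control level (95% interval 0.456-fold to 0.571-fold). The GENCODE annotation on GRCh37 used here holds 4 pseudogenes of CD24 and no gene of that name, so no position is given and the level is uncertain, since the counting could place or split its reads among copies. SIGLEC10, a receptor for CD24 on immune cells, had 8.23 and 8.19 in control against 8.48 and 8.46 in those labelled GNA13-deficient. The difference, 0.26, did not pass (adjusted p = 0.0958 from limma), but it passed at 0.44 under quantile normalization (adjusted p = 0.0234) and at 0.47 under median centring (adjusted p = 0.0176).

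CD27 showed the largest change of the set. CD27 (Entrez 939; chromosome 12, 6554121 to 6560884) had log2 values of 9.16 and 9.34 in control against 6.58 and 6.78 in those labelled GNA13-deficient, from 561 and 660 reads against 93 and 102. Both libraries labelled GNA13-deficient lay far below both controls, by a gap of 2.38 against replicate differences of 0.19 and 0.20. CD27 fell by 2.57 on the log2 scale (standard error 0.14, adjusted p = 0.00114 from limma), or 5.95-fold (95% interval 4.67-fold to 7.59-fold), and 96.1% of all genes tested had a smaller absolute difference. In GENCODE its exons overlap those of TAPBPL on the same strand and of the antisense RNA CD27-AS1. TAPBPL, a tapasin-related gene of antigen presentation, fell by 0.41 (adjusted p = 0.0418 from limma). TAPBPL did not pass without the filter on low values (adjusted p = 0.134), without the variance trend (0.0983), under quantile normalization (difference -0.28, adjusted p = 0.124) or under median centring (difference -0.20, adjusted p = 0.249). The strand setting of the counting is not given in the sources used here, so reads of CD27 and its antisense partner cannot be told apart.

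CD70, the ligand of CD27, was scarce, with 24 reads in each control library and 31 and 29 in those labelled GNA13-deficient (Entrez 970; chromosome 19, 6583194 to 6604114). Its log2 values were 4.61 and 4.56 in control against 4.99 and 4.96 in those labelled GNA13-deficient, with no overlap. The difference of 0.39 did not pass (95% interval -0.34 to 1.12, adjusted p = 0.366 from limma), and at this depth a change of 2.18-fold upwards or of 1.27-fold downwards lay within the interval. The difference was 0.84 under quantile normalization (adjusted p = 0.0798) and 0.60 under median centring (adjusted p = 0.157), and without the variance trend the adjusted p was 0.0599. Scaled by the length of the canonical transcript, the level of CD27 was 17.1 and 20.1 times that of CD70 in control and 2.20 and 2.57 times in the libraries labelled GNA13-deficient.

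FAS, scarce as well, moved the other way from CD27. FAS (Entrez 355; chromosome 10, 90750414 to 90775542) had log2 values of 6.33 and 5.88 in control against 6.97 and 7.16 in those labelled GNA13-deficient, from 79 and 60 reads against 122 and 133. The genotypes did not overlap, with a gap of 0.64, but the control libraries differed from each other by 0.45. FAS rose by 0.96 on the log2 scale (standard error 0.23, adjusted p = 0.0353 from limma), or 1.94-fold (95% interval 1.29-fold to 2.93-fold). It did not pass without the filter on low values (adjusted p = 0.146) or without the variance trend (adjusted p = 0.0705). The exons of FAS overlap those of ACTA2, smooth muscle actin, on the opposite strand, and ACTA2 had 20 and 24 reads in control against 35 and 29 in those labelled GNA13-deficient. Its difference of 0.61 did not pass (adjusted p = 0.197 from limma), but it was 1.06 and passed under quantile normalization (adjusted p = 0.0486).

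Of 21 listed genes of FAS and CD27 signaling, 19 were tested, with 5 higher, 5 lower and 9 not called. FASLG, the ligand of FAS, had at most 1 read in any library. SIVA1, a proapoptotic protein that binds the CD27 tail, rose by 0.88 and FAIM, an inhibitor of FAS-induced death, rose by 0.71, while BIRC2, a ubiquitin ligase of TNF receptor complexes, fell by 0.84 (adjusted p = 0.00223 to 0.00693 from limma). SIVA1 and BIRC2 did not pass without the filter on low values (adjusted p = 0.0896 and 0.0646). The adaptor FADD and the initiator caspase CASP8 did not pass, with log2 differences of -0.14 and -0.23; they were named after their values had been seen. Under median centring 7 genes of the list were higher and 3 lower.

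**Figure D2:**
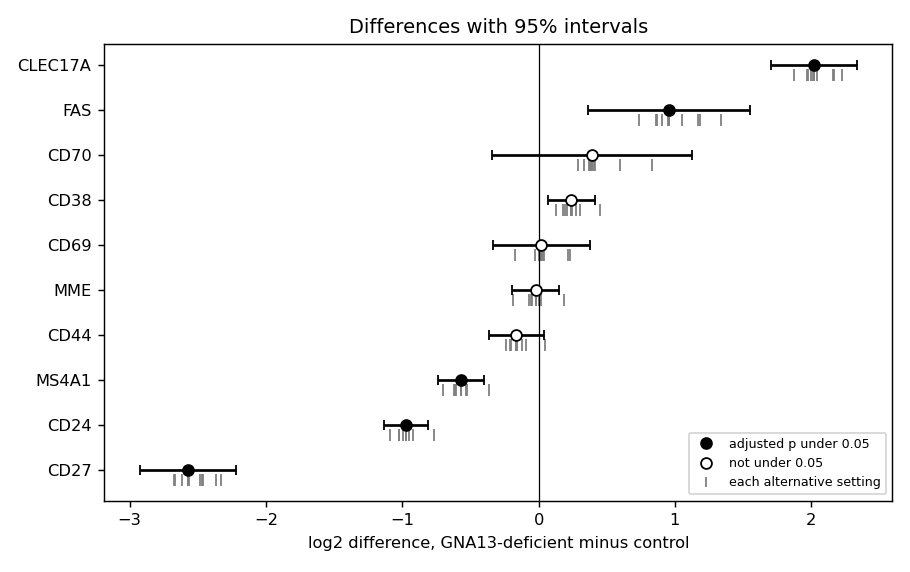
Log2 difference between genotypes (horizontal axis, GNA13-deficient minus control) for each surface marker, with 95% intervals from limma, filled where the adjusted p was under 0.05, and grey ticks for each alternative setting. The intervals of CD27, CD24 and MS4A1 lie below 0 and those of FAS and CLEC17A above it, and the ticks of these 5 genes stay on the side of their interval.

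CLEC17A rose most of the set. CLEC17A (Entrez 388512; chromosome 19, 14693896 to 14722847) had log2 values of 8.01 and 7.72 in control against 9.91 and 9.86 in those labelled GNA13-deficient, from 253 and 214 reads against 935 and 863. The gap of 1.85 between genotypes exceeded the largest replicate difference of 0.29. CLEC17A rose by 2.02 on the log2 scale (standard error 0.12, adjusted p = 0.00147 from limma), or 4.05-fold (95% interval 3.26-fold to 5.04-fold), and 94.2% of all genes had a smaller absolute difference. In a list of 11 other C-type lectins of lymphocytes and related cells, 9 were tested, with none higher and 2 lower. CLEC2D, a lectin known on germinal center B cells, fell by 0.40 and LY75, an endocytic receptor, by 0.36. Neither passed without the filter, without the variance trend or under median centring (adjusted p = 0.104 to 0.178). Under median centring that list had 3 higher and none lower.

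CD44 and CD69 did not pass the test. CD44 (Entrez 960; chromosome 11, 35160429 to 35253949) had log2 values of 10.31 and 10.40 in control against 10.27 and 10.12 in those labelled GNA13-deficient. The genotypes were apart by only 0.05, less than the replicate difference of 0.15. The difference was -0.16 (95% interval -0.36 to 0.04, adjusted p = 0.183 from limma), and it was 0.045 under median centring. CD69 (Entrez 969; chromosome 12, 9905082 to 9913497) had values of 10.32 and 9.92 in control, which enclosed the 10.15 and 10.13 of the libraries labelled GNA13-deficient. Its difference was 0.02 (95% interval -0.34 to 0.38, adjusted p = 0.939 from limma), with the sign turned under scaling to the total of mapped reads, at -0.029.

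Several partner genes of CD44 and CD69 did pass. Of 15 listed genes, 13 were tested, with 1 higher and 5 lower. S1PR1, the egress receptor that CD69 binds, had log2 values of 9.73 and 9.68 in control against 9.01 and 9.02 in those labelled GNA13-deficient, and fell by 0.69 (adjusted p = 0.00347 from limma). KLF2, a transcription factor known to drive S1PR1 in lymphocytes, fell by 1.65 and EZR, the membrane-cytoskeleton linker ezrin that can bind the CD44 tail, by 0.79, while HMMR, a hyaluronan receptor and mitotic protein, rose by 0.76 and did not pass without the filter (adjusted p = 0.0696). Under median centring the list had 3 higher and 4 lower. MIF, a ligand of the CD74 and CD44 complex that most cells make, was listed at 0 in all libraries, so a listed 0 is not read as absence.

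The levels of 9 genes could be compared per kb of canonical transcript, CD24 being left out for want of a length. In control the order from high to low was MS4A1 (3418 normalized reads per kb), MME (2975), CD38 (1071), CD69 (670), CD27 (490), CD44 (241), CLEC17A (76.6), FAS (27.2) and CD70 (26.4). The libraries of neighbours in this order did not overlap, except that FAS, at 31.4 and 23.0, enclosed CD70, at 26.8 and 25.9. The order in the libraries labelled GNA13-deficient was MME (2929), MS4A1 (2304), CD38 (1267), CD69 (673), CLEC17A (309), CD44 (216), CD27 (82.4), FAS (52.3) and CD70 (34.6), with no overlap between neighbours. MS4A1 stood at 1.09 and 1.21 times MME in control and at 0.751 and 0.823 times in the libraries labelled GNA13-deficient. Among 14902 tested genes with a length, CD27 went from percentile 73.8 to percentile 43.7 of length-scaled level and CLEC17A from percentile 41.2 to percentile 65.2. CD44 has many transcripts of different length, so its place depends on the one chosen.

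**Figure D3:**
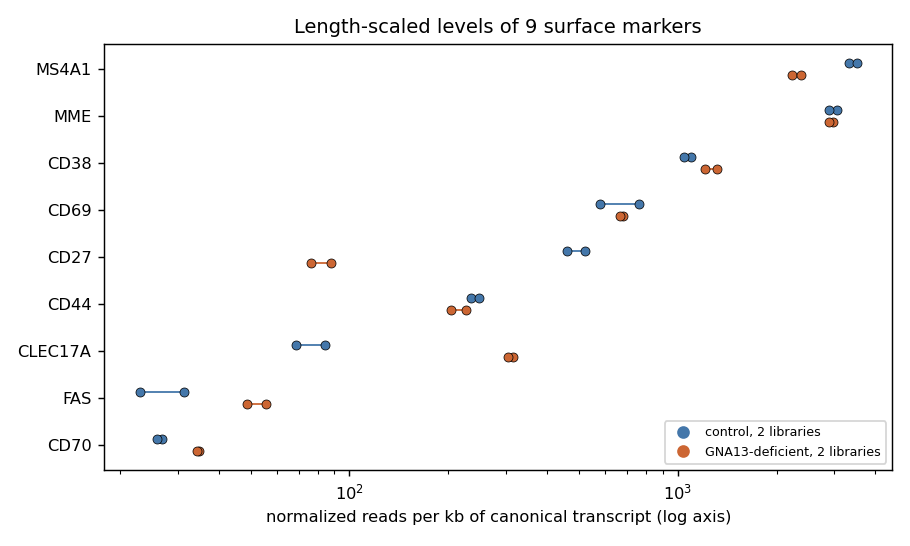
Normalized reads per kb of canonical transcript (horizontal log axis) for 9 surface markers, with 1 point per library joined within a genotype. CD27 and CLEC17A exchanged places around CD44, which lay at 241 in control and 216 in those labelled GNA13-deficient.

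Other surface genes of the same B cell stages were read from lists. Of 14 other germinal center surface genes, 13 were tested, with 3 higher and 7 lower and a median log2 difference of -0.40, which was -0.19 under median centring with 4 higher and 6 lower. VNN2, a lipid-anchored pantetheinase, fell by 0.93, CXCR4, a chemokine receptor, fell by 0.73 and CD83, an activation marker, rose by 0.65. VNN2 and CD83 did not pass without the filter (adjusted p = 0.0506 and 0.0564). The costimulatory ligand CD86 fell by 3.91, and the semaphorin receptor PLXNB2 fell by 2.86. EFNB1 rose by 1.04 (adjusted p = 0.0127 from limma), from 71 and 81 reads in control to 145 and 152 in those labelled GNA13-deficient. CD86, PLXNB2 and EFNB1 were named after their values had been seen. The remaining gene called higher was CD40, which is also in the activation list below.

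Of 14 other memory surface genes, 11 were tested, with 4 higher and 2 lower and a median of -0.18 that became 0.030 under median centring. The tetraspanin CD82 rose by 2.31 and TNFRSF13B, the receptor TACI, by 0.38. TNFRSF13B did not pass without the filter (adjusted p = 0.0675) or without the variance trend (adjusted p = 0.0738), and its difference was 0.59 under median centring. Named after their values had been seen, CD1C, a lipid antigen-presenting molecule, rose by 3.28, and FCRL4, an Fc receptor-like protein of tissue memory B cells, rose by 2.82 from 12 and 10 reads to 75 and 72. CD27 fell while other memory genes moved in both directions.

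Of 14 other activation surface genes, 13 were tested, with 4 higher, 3 lower and a median of 0.30, against 7 higher, 2 lower and a median of 0.51 under median centring. CD82 and CD83 are also in this list, and CD40, the receptor for T cell help, rose by 0.47 but did not pass without the filter (adjusted p = 0.0995) or the variance trend (adjusted p = 0.073). The 3 that fell were CD86, with the largest difference of the list, IL2RA, a chain of the interleukin receptor of activated lymphocytes, which fell by 2.10, and ICAM1, an adhesion ligand of integrins, which fell by 0.32. IL2RA and ICAM1 were named after their values had been seen. Neither passed without the filter (adjusted p = 0.0713 and 0.0706), and ICAM1 also not without the variance trend (0.0952), under quantile normalization (0.0567) or under median centring (difference -0.11, adjusted p = 0.352). Of 14 pan-B-cell surface genes, all were tested, with 1 higher, 3 lower and 10 not called, and a median of -0.04, which was 0.17 under median centring with 3 higher and 3 lower. The tetraspanin CD37 fell by 0.87. Of 8 plasma cell surface genes, 7 were tested, with 1 higher and 2 lower. The tetraspanin CD9 fell by 3.78, TNFRSF17, the receptor BCMA, fell by 0.59 and FCRL5, an Fc receptor-like protein, rose by 0.59, while SDC1, the defining plasma cell marker, had 14 to 21 reads in any library. TNFRSF17 and FCRL5 did not pass without the filter (adjusted p = 0.121 and 0.0597), and TNFRSF17 also not under median centring (difference -0.39, adjusted p = 0.0705) or without the variance trend (adjusted p = 0.0729).

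**Figure D4:**
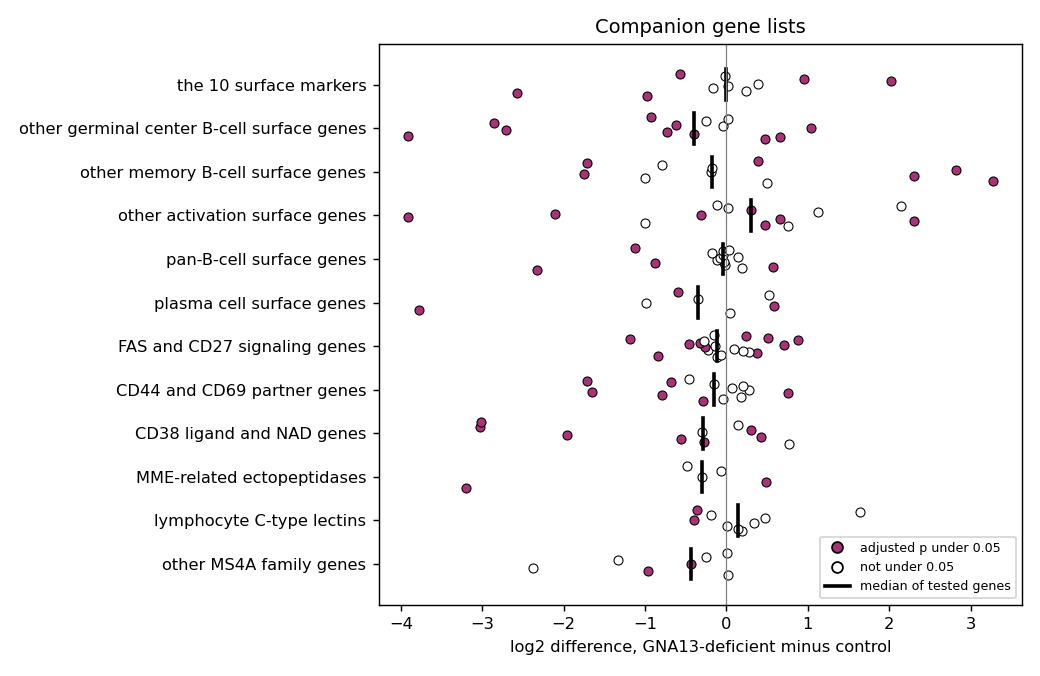
Log2 difference between genotypes (horizontal axis, GNA13-deficient minus control) for every tested gene among the 10 surface markers and of the companion lists (vertical axis), filled where the adjusted p was under 0.05, with a bar at each list's median. Within the surface marker set the differences reached from -2.57 for CD27 to 2.02 for CLEC17A around a median near 0.

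**Figure D5:**
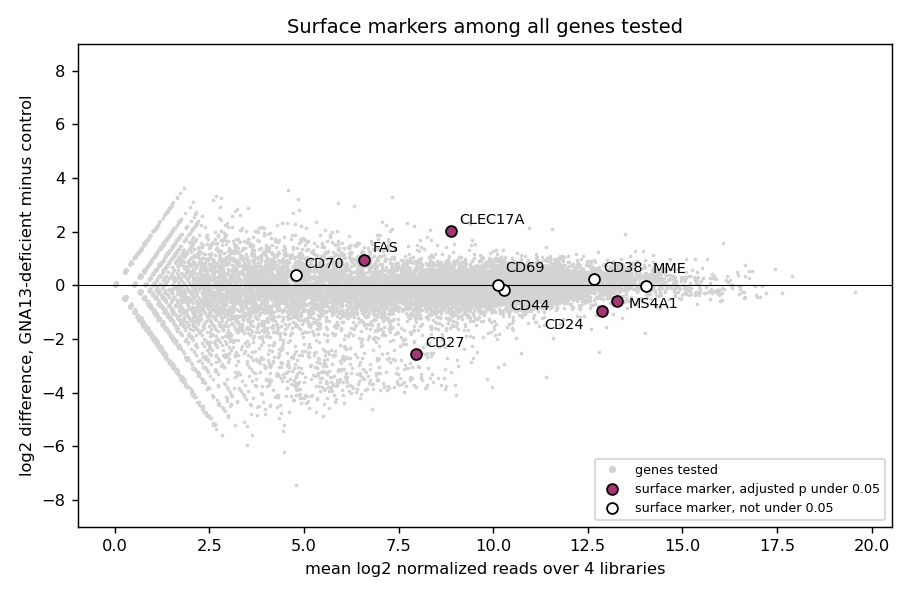
Log2 difference (vertical axis, GNA13-deficient minus control) against mean log2 normalized reads over the 4 libraries (horizontal axis) for the 16945 genes tested in grey, with the 10 surface markers on top, filled where the adjusted p was under 0.05. CD27 lies low at a mean of 7.96, where other genes also lie, and CLEC17A near the upper edge of the cloud at a mean of 8.87.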

How the data were processed

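RNA from 4 libraries of treated NUDUL1 cells was sequenced from poly(A)-selected, stranded libraries. Reads were aligned by the authors to hg19 with STAR. The submitters' processing notes name HTSeq, and its settings, the annotation and the normalization are not given in the sources used here. The table deposited by the authors holds log2 normalized read counts, with a row of total mapped reads used only for depth. On the linear scale each deposited value equalled a whole number of reads over a library-specific factor (0.930 to 1.02). Of nonzero values up to 400 reads, 100% were whole within the rounding of the log2 values, and these reads gave the depth behind a value. Statements on depth cover counting error only.

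The log2 values were compared as deposited, without a pseudocount, with limma 3.58.1 in R 4.3.3, on genes above 0 in at least 2 libraries, with genotype as the only term. The threshold was an adjusted p of 0.05, two-sided. On simulated reads with 200 genes of at least 50 reads changed by 1 on the log2 scale, 178 (89%) were called among 16499 tested, with 0 false calls, at a dispersion of 0.003 set by hand. The simulated libraries were drawn independently at that dispersion, so these rates are not error rates of the real comparison. The deposited replicates differed beyond sampling noise (chi-square per degree of freedom 11.7 in control, 11.4 in the other genotype). Transcript lengths and GRCh37 positions came from GENCODE (canonical transcripts, 87.9% of the tested genes matched), and promoter windows from RefSeq. The genes and lists were chosen with earlier results of these data known. Beyond the 10 surface markers, GNA13, GAPDH and known partners, up to 3 genes per list were named, taking the largest differences that passed the threshold, where the genotypes did not overlap and the mean level was not below the median of the tested genes. Some genes that met this rule are not reported here. GAPDH had a log2 difference of 0.49 (adjusted p = 0.0502 from limma). Python 3.11 drew the figures.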

Additional observations from a re-analysis of the deposited data

How the results depend on the processing

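With the replicate block 6616 of all genes were called, against 5037 without it, and 6 of the 10 surface markers, against 5, the addition being CD38 (adjusted p = 0.00876 from limma). The replicate numbers are shared by the genotypes and no source pairs the libraries; deviations of same-numbered libraries correlated at 0.453 across 8473 genes, which are not independent. No filter gave 1999 called genes and no variance trend 2718. With a library left out, 1 residual degree of freedom remains and the lone library is assumed to vary like the other genotype. Then 0 of all genes and 0 of the 10 were called in each of the 4 fits, a limit of the design that says nothing on stability. Across these fits CD27 ranged from -2.67 to -2.47, CD24 from -1.02 to -0.92, MS4A1 from -0.61 to -0.53, FAS from 0.74 to 1.18 and CLEC17A from 1.87 to 2.16. The sign turned for values near 0. For MME it did so under median centring (0.19) and across the fits without a library (-0.059 to 0.015; 0.015 when control replicate 1 was left out, 0.001 when GNA13-deficient replicate 2 was). CD44 turned under median centring (0.045). CD69 turned when scaled to the total of mapped reads (-0.029) and ranged from -0.18, without control replicate 2, to 0.22 across the fits without a library. CD79A (0.025), FADD (0.068) and CD79B (0.17) turned under median centring, CD79B also when control replicate 2 (0.028) or GNA13-deficient replicate 1 (0.076) was left out, with a range of -0.15 to 0.076, and SDC1 under quantile normalization (0.048). Under median centring and in the other scalings CD27, CD24, MS4A1, FAS and CLEC17A kept their direction and passed. The causes were not tested. Scaling to that total, and at least 10 reads in 2 libraries, were chosen after seeing the data. CD27, CD70 and FAS have no value when genes with a mean under the median of all means are dropped.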
